A study of Mus musculus with 20 samples.

Results

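Histidine is encoded by CAC and CAU, and the histidine codon sites described here are every codon of an mRNA that encodes histidine and carried at least 1 ribosome footprint in the hippocampus of mice with or without Qtrt1. Sites were chosen by the codon alone: 12783 of the 586153 distinct codon positions listed by the authors (2.18%) were histidine codons, 7801 of them CAC and 4982 CAU, on 3698 mRNAs. In the deposited codon enrichment tables, which give the mean footprint density at each distance from a codon, histidine took up 362 of 11041 combinations of codon and position. Footprints are the mRNA fragments left inside ribosomes after RNase I digestion. Their count over a codon reports how often ribosomes were found there.

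The tested animals were homozygous Qtrt1-/- mice, 3 females aged 6 months 21 days, 1 male aged 6 months 18 days (male 1) and 1 male aged 5 months 16 days (male 2). The wild-type animals were 3 females, aged 6 months 22 days (female 1) or 6 months 21 days (females 2 and 3), and 2 males of the same 2 ages as the knockout males. Each of the 10 animals gave 1 footprint library and 1 library of input RNA from the same cytoplasmic hippocampal lysate, which was prepared in cycloheximide, an inhibitor that stalls elongating ribosomes. The labels do not say how the Qtrt1 allele was made or whether Qtrt1 is lost in every cell. The p-values measure the spread between these animals.

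Qtrt1 is the catalytic part of an enzyme, the tRNA-guanine transglycosylase, which with its partner Qtrt2 puts queuine in place of guanine in the first anticodon base of the tRNAs for histidine, asparagine, aspartate and tyrosine. The product, queuosine, sits at the base that reads the third base of the codon, so the same histidine tRNA decodes CAC, where that base is C, and CAU, where it is U. Mammals take up queuine from the diet and from gut bacteria, and do not make it themselves.

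Footprint libraries held between 5357812 and 15517982 counts on genes, with wild-type male 2 the shallowest and wild-type male 1 the deepest, and input libraries held between 9000662 and 13637370. Histidine sites numbered 3477 to 6775 per library and carried 15107 to 42165 footprints, 1.35% to 1.49% of those listed. The median histidine site in a library had 1 or 2 footprints. Of the sites, 4735 were listed in 1 library only and 1004 in all 10, so single sites could be tested only at the most covered codons. CAC made up 61.03% of the listed histidine sites. It made up 58.4% of the histidine codons in the coding sequences of all listed mRNAs, with or without a histidine site. Those were counted from position 15 in the authors' numbering, the lowest position listed.

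The sequences that carry the site results are shown first. Each window holds the histidine codon in capitals with 4 codons of the mRNA on either side, 5′ to 3′ in the sense of the mRNA, and the coordinates are those of the histidine codon on mouse GRCm38, from the GENCODE M21 coding sequence. The first set shows the 10 sites with the lowest p among those whose footprints rose in Qtrt1-/- when histidine lay 1 codon upstream of the codon at which the authors listed the footprint, and the last line the most occupied such site, which was not called.
Mmd2 codon 43, exon 2, chr5:142580184-142580186, minus strand: aactgtgccaccCATgctttctggatc
Wdr6 codon 773, exon 2, chr9:108574364-108574366, minus strand: tctgtctgtaacCATatctcctctgtg
Nol6 codon 892, exon 20, chr4:41117683-41117685, minus strand: tcactcttcctgCACcctgagcccttc
Brinp1 codon 616, exon 8, chr4:68762444-68762446, minus strand: ttcgagactgtcCATatctacctacgt
Adcy2 codon 412, exon 8, chr13:68730282-68730284, minus strand: gacgtgtggtctCATgatgttactttg
Rasgrf1 codon 428, exon 9, chr9:89974772-89974774, plus strand: tccaggatcatgCATgacgaagtcagt
Lrrc4b codon 691, exon 3, chr7:44462776-44462778, plus strand: ctcaactccatcCACgaacctctgctc
Ndufb9, exon 3, chr15:58937379-58937381, plus strand: ttagattactggCATccctctgagaaa
Abca2 codon 676, exon 14, chr2:25437526-25437528, plus strand: acatttgtggggCATgacgtggtcgaa
Klhl24 codon 261, exon 3, chr16:20107504-20107506, plus strand: cttcctctcttgCATcccaactacttt
Akap6 codon 2112, exon 13, chr12:53142138-53142140, plus strand: tctctttcgtccCATgacagtgactgt

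Codons are numbered from 1 at the start codon, and the windows of Mmd2 and Rasgrf1 span an intron in the genome. The second set shows called sites at which histidine was itself the listed codon, the first 3 higher and the last 3 lower in Qtrt1-/-, because here calls went both ways and each site called lower was a CAC.
St6galnac5 codon 269, exon 5, chr3:152821712-152821714, minus strand: tccgtaccctatCATtactatgagcct
Snrnp200 codon 958, exon 21, chr2:127227074-127227076, plus strand: ctcgatcttgttCACactgctgccttg
Dnaja2 codon 220, exon 6, chr8:85546627-85546629, minus strand: attctggaagtcCATgtagacaaaggc
Sparcl1 codon 485, exon 7, chr5:104088431-104088433, minus strand: accaaaaagggaCACcaactgcagctg
Plk2 codon 520, exon 11, chr13:110399203-110399205, plus strand: cagctctcggacCACactgttggcgtc
Adcy2 codon 867, exon 20, chr13:68651907-68651909, minus strand: gtgctacctgcaCACgtggctgaacac

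The deposited tables number positions relative to the listed codon and name no ribosomal site. Recomputing footprint densities from the site tables showed that a deposited position 1 is the codon 1 upstream of the listed codon and that position 0 is the listed codon itself (r between 0.96 and 0.99 over the 61 sense codons for positions -3 to 3, wild-type female 1, as a description). Histidine is therefore given at both. In the recomputed ratio, 1 means as many footprints as the mRNA average and lower values mean fewer, and the deposited enrichment is read in the same way.

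With histidine 1 codon upstream, both codons held fewer footprints than average, and CAC held fewer than CAU in each of the 10 libraries. CAC had the lowest mean enrichment of all 61 sense codons at that position in both genotypes, whereas CAU stood at rank 26 from the lowest in Qtrt1-/- and at rank 20 in wild type. CAU exceeded CAC by 2.06-fold to 2.60-fold in the Qtrt1-/- libraries and by 2.03-fold to 2.64-fold in the wild-type libraries.

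At CAU the enrichment 1 codon upstream was 0.739, 0.705 and 0.698 in the Qtrt1-/- females, against 0.538, 0.542 and 0.637 in the wild-type females. It was 0.717 and 0.708 in the Qtrt1-/- males, against 0.724 and 0.528 in the wild-type males. Every knockout female lay above every wild-type female, while in males wild-type animal 1, the deepest library, lay above both knockouts. The mean over both sexes was 20.0% higher in Qtrt1-/- (log2 difference 0.26, exact two-sided permutation test within sex p = 0.05, n = 5 each), which did not fall under the threshold of 0.05. In females alone the log2 difference was 0.32 (exact permutation p = 0.10, the smallest that 3 against 3 allows), and in males 0.20 (exact permutation p = 1.0, with 0.333 the smallest possible).

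At CAC the enrichment 1 codon upstream was 0.326, 0.319 and 0.338 in the Qtrt1-/- females, against 0.258, 0.248 and 0.303 in the wild-type females. It was 0.276 and 0.297 in the Qtrt1-/- males, against 0.357 and 0.200 in the wild-type males. The female groups did not overlap, the male values overlapped, and the pairs of males of like age went opposite ways, the older knockout below and the younger knockout above its wild-type counterpart. The log2 difference was 0.19 over both sexes (exact permutation p = 0.433, n = 5 each), 0.29 in females (exact permutation p = 0.10) and 0.10 in males (exact permutation p = 1.0). Without wild-type male 1 the difference became 0.40 for CAC and 0.38 for CAU (exact permutation p = 0.0167 for each), and without wild-type male 2 it became -0.02 and 0.15.

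**Figure D1:**
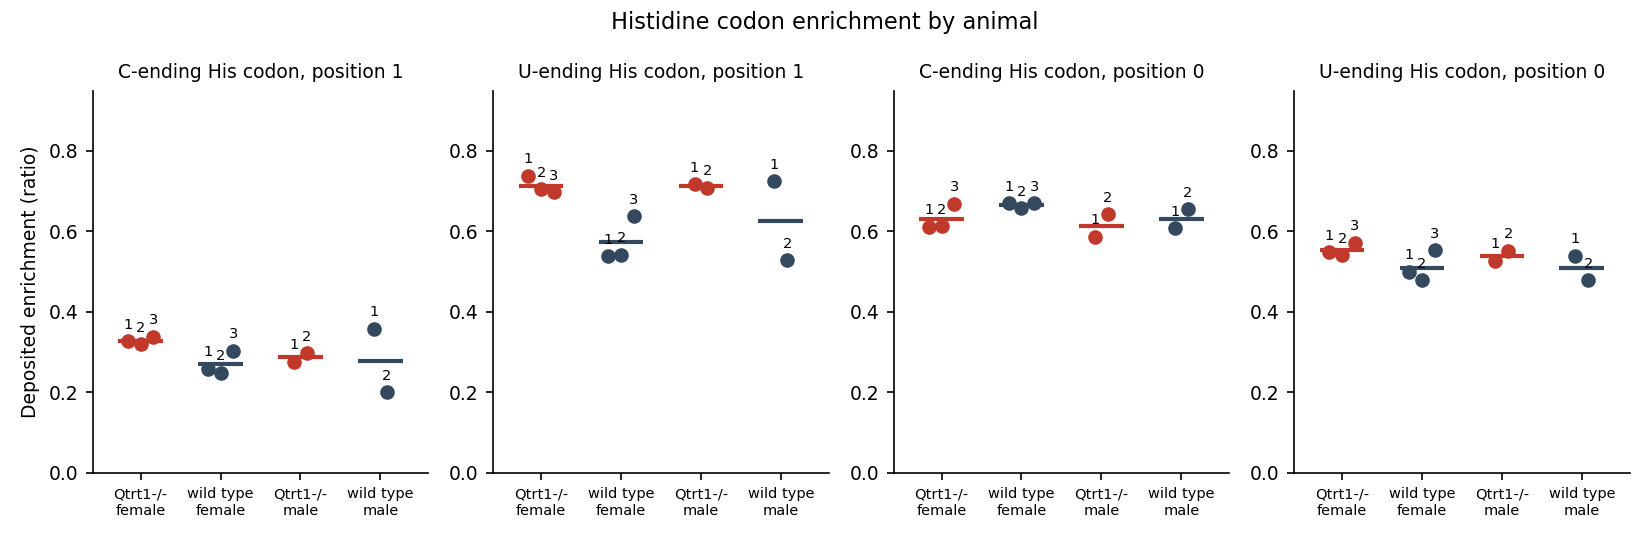
Deposited enrichment (ratio, linear axis from 0) of the C-ending and the U-ending histidine codon 1 codon upstream (position 1) and at the listed codon (position 0), with 1 numbered point per animal and a bar at the group mean, Qtrt1-/- in red left of wild type in dark blue. At position 1 the 3 knockout females lie above the 3 wild-type females for both codons, while the 2 wild-type males span 0.200 to 0.357 for CAC.

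With histidine as the listed codon the order of the codons was turned round, and CAC held more footprints than CAU in every library. CAC exceeded CAU by 1.11-fold to 1.17-fold in the Qtrt1-/- libraries and by 1.12-fold to 1.38-fold in the wild-type libraries. At CAU the enrichment was 0.548, 0.540 and 0.571 in the Qtrt1-/- females, against 0.499, 0.478 and 0.553 in the wild-type females, and it was 0.527 and 0.552 in the Qtrt1-/- males, against 0.540 and 0.479 in the wild-type males. At CAC it was 0.611, 0.613 and 0.669 in the Qtrt1-/- females, against 0.670, 0.658 and 0.670 in the wild-type females, and 0.587 and 0.642 in the Qtrt1-/- males, against 0.607 and 0.655 in the wild-type males. Both codons overlapped between genotypes, and their differences had opposite signs, 0.10 on the log2 scale for CAU (exact permutation p = 0.117, n = 5 each) and -0.06 for CAC (exact permutation p = 0.20).

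The gap between CAC and CAU within a library removes any shift that both codons share. With histidine listed, the log2 gap was 0.16, 0.18 and 0.23 in the Qtrt1-/- females, against 0.42, 0.46 and 0.28 in the wild-type females, and it was 0.15 and 0.22 in the Qtrt1-/- males, against 0.17 and 0.45 in the wild-type males. All 3 knockout females had a narrower gap than all 3 wild-type females, and the males overlapped because wild-type male 1 had a gap as narrow as the knockouts. Gaps between other C-ending and U-ending codons were not computed, so this separation only describes the animals. The log2 gap differed by -0.16 between Qtrt1-/- and wild type (exact permutation p = 0.05, n = 5 each), and by -0.20 in females (exact permutation p = 0.10). Without wild-type male 1 the difference was -0.23, and without wild-type female 3 it was -0.19 (exact permutation p = 0.0333). Over all fits that left out 1 animal it ran from -0.23 to -0.091, and in males alone from -0.27 to 0.016. With histidine 1 codon upstream the gap differed by -0.07 (exact permutation p = 0.583). Over these 6 comparisons of CAC, CAU and their gap, Benjamini-Hochberg adjustment gave 0.15 for the gap at the listed codon and for CAU upstream, 0.52 for CAC upstream, and 0.233 for CAU listed.

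Fitted with limma together with all 61 codons, neither histidine codon was called at an adjusted p under 0.05, whether upstream or listed. For histidine upstream, 6.56% of all codons were called over both sexes (4.92% higher and 1.64% lower), 9.84% in females (6.56% and 3.28%) and 3.28% in males, all of these higher. The log2 difference was 0.26 ± 0.09 (SE) for CAU (adjusted p = 0.112 and unadjusted p = 0.0184) and 0.19 ± 0.15 for CAC (adjusted p = 0.334). For histidine listed, 8.2% of codons were called over both sexes (3.28% higher and 4.92% lower) and 11.5% in females (4.92% and 6.56%). The difference was 0.10 ± 0.05 for CAU (adjusted p = 0.190) and -0.06 ± 0.05 for CAC (adjusted p = 0.372). Without wild-type male 1, the limma differences were 0.40 for CAC upstream, 0.38 for CAU upstream and 0.15 for CAU listed. The 1 remaining wild-type male is assumed there to vary like the other groups, so calls from that fit are not given. The difference between the female and the male effect was 0.12 ± 0.18 for CAU upstream and 0.19 ± 0.29 for CAC upstream (limma adjusted p = 0.697 for each), so the sexes could not be separated at these numbers. With the fit extended to every codon at every position, 0 of the 362 histidine combinations were called, where 0.0543% of all combinations were called (0.0453% higher and 0.00906% lower). Of the 362, 78 had an unadjusted p under 0.05 (40 higher and 38 lower in Qtrt1-/-). The share of all combinations at that unadjusted threshold was not computed. Without knockout female 3, limma called 4 of the histidine combinations higher and 6 lower. Fits without wild-type male 1 or knockout male 1 also called some, with 1 male of that genotype remaining. The share of all combinations called was not computed for these fits. The lowest limma adjusted p was 0.0549, for CAU 68 codons downstream of the listed codon (log2 difference 0.17 ± 0.02).

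The deposited profile of CAU also had a high value 2 codons downstream of the listed codon, and that value followed 1 mRNA. It was 1.39, 1.25 and 1.104 in the Qtrt1-/- females, against 0.963, 0.963 and 1.43 in the wild-type females, and 1.92 and 1.45 in the Qtrt1-/- males, against 1.75 and 2.03 in the wild-type males. The libraries low at this position, wild-type females 1 and 2, were also those with little Ttr, the transthyretin mRNA of the choroid plexus. Ttr took 3.76%, 2.93% and 0.915% of codon footprints in the Qtrt1-/- females, against 0.0531%, 0.113% and 2.46% in the wild-type females, and 5.89% and 3.50% in the Qtrt1-/- males, against 5.05% and 5.21% in the wild-type males. Recomputed from the site tables without Ttr, CAU at this position lay between 1.04 and 1.12 in all 10 libraries.

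Summed CPM, the counts scaled to equal library totals, of the 3 choroid plexus markers (Ttr, Kl and Folr1), all detected in every footprint library, ran from 2131 to 8991 in Qtrt1-/- females, 128.1 to 5592 in wild-type females, 8663 to 13606 in Qtrt1-/- males and 11574 to 12086 in wild-type males. Ttr made up most of each of these sums. The 6 hippocampal markers (Prox1, Wfs1, Man1a, Grik4, Neurod6 and Zbtb20) were likewise detected in every library, with sums from 969 to 1037 in Qtrt1-/- females, 670 to 914 in wild-type females, 966 to 1136 in Qtrt1-/- males and 911 to 1017 in wild-type males. The female sums did not overlap, but Wfs1 made up most of each sum. Taken singly, the female groups overlapped for Wfs1, Prox1, Grik4 and Zbtb20 and not for Man1a and Neurod6. The 3 striatal markers (Drd1, Drd2 and Ppp1r1b) summed to 48.8 to 154.4 in Qtrt1-/- females, 93.4 to 266 in wild-type females, 51.9 to 67.5 in Qtrt1-/- males and 56.1 to 77.3 in wild-type males. In input RNA the hippocampal sums ran from 586 to 639 in Qtrt1-/- females and from 436 to 591 in wild-type females, so those groups overlapped. The part of any of these lists in the histidine differences was not tested. Fewer cells of a type and less RNA per cell cannot be told apart in these lysates. Without Ttr the recomputed CAU difference with histidine upstream was 0.25 on the log2 scale, beside 0.27 with it. For CAU listed it was 0.16 in females and 0.14 in males without Ttr, beside 0.12 and 0.08 with it. For CAC listed it was -0.08 in females and -0.04 in males without Ttr, beside -0.11 and -0.04 with it.

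**Figure D2:**
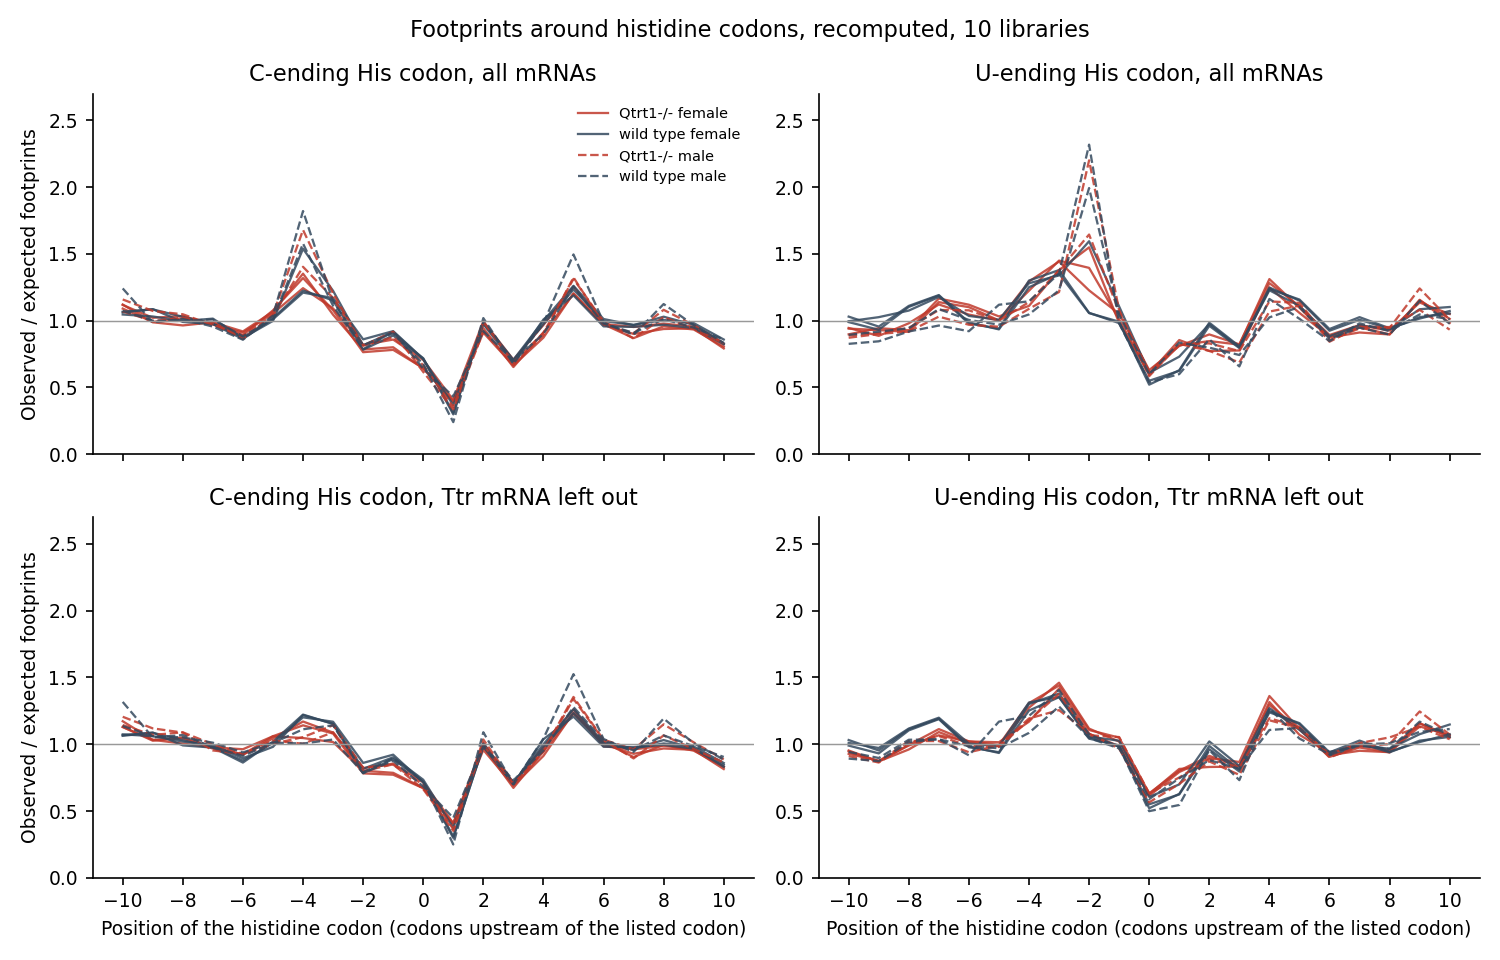
Observed over expected footprints (ratio) of the C-ending and the U-ending histidine codon from 10 codons downstream to 10 codons upstream of the listed codon, 1 line per library, Qtrt1-/- in red and wild type in dark blue, females solid and males dashed, for all mRNAs (top) and with the Ttr mRNA left out (bottom). The dip 1 codon upstream is deepest for the C-ending codon, and the spread of the U-ending codon 2 codons downstream narrows to 1.04 to 1.12 once Ttr is left out.

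Recomputing the occupancy from the footprint counts of 1966 mRNAs listed in all 10 libraries gave differences of like size. Observed over expected footprints at CAU upstream were 0.855, 0.815 and 0.811 in the Qtrt1-/- females, against 0.624, 0.629 and 0.731 in the wild-type females, and 0.826 and 0.821 in the Qtrt1-/- males, against 0.836 and 0.6001 in the wild-type males. The female groups did not overlap and the male groups did. The log2 difference was 0.27 for CAU upstream (exact permutation p = 0.05, n = 5 each), 0.20 for CAC upstream (exact permutation p = 0.417), 0.10 for CAU listed (exact permutation p = 0.117) and -0.07 for CAC listed (exact permutation p = 0.0833). A mean of the deposited single-codon occupancy over listed sites turned 2 of these round, to -0.14 for CAU upstream and 0.06 for CAC listed (exact permutation p = 0.60 and 0.817).

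Each histidine codon has a neighbour, and both the level and the difference varied with it. Pairs of an upstream and a listed codon were compared as observed over expected footprints, and 3516 of the 3721 possible pairs had enough footprints to test. Histidine was the upstream codon of 59 tested pairs with CAC and 56 with CAU, and the listed codon of 59 with CAC and 53 with CAU. In wild type, the pairs with histidine upstream ran from 0.052 for CAU followed by UUA (0.112 in Qtrt1-/-) to 1.79 for CAU followed by GAC, the aspartate codon (2.62 in Qtrt1-/-). With histidine listed they ran from 0.134 for AUA before CAC to 2.45 for GAU, the other aspartate codon, before CAC (1.67 in Qtrt1-/-).

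With limma over all pairs and both sexes, 0 pairs with histidine upstream and 0 with histidine listed were called, where 0.569% of all pairs were called higher and 0.0569% lower. At an unadjusted p under 0.05 there were 14 and 21 of them, and the share of all pairs at that threshold was not computed. The pairs with histidine upstream had a median log2 difference of 0.22 with 87 above and 28 below 0, beside 0.03 with 1934 of 3516 above 0 over all pairs. The median was 0.26 for CAU and 0.18 for CAC upstream. Without wild-type male 1, limma called histidine pairs of both kinds, but only 1 wild-type male remained in that fit. The share of all pairs called there was not computed, so those calls have no background. With histidine listed the codons parted, with a median of 0.17 for CAU (39 of 53 pairs above 0) and -0.01 for CAC (28 of 59).

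In females alone limma called 2 pairs with histidine upstream, both with CAU and both higher in Qtrt1-/-. With 59 CAC and 56 CAU pairs tested upstream, this share was near the 1.68% of all pairs called higher. For CAU followed by GAC, observed over expected footprints were 3.02, 2.91 and 2.75 in the Qtrt1-/- females, against 2.04, 1.81 and 1.69 in the wild-type females, and 2.15 and 2.27 in the Qtrt1-/- males, against 1.87 and 1.54 in the wild-type males. All 5 knockouts lay above all 5 wild types, but the pair was chosen by the same difference, so this only describes it. The log2 difference was 0.65 in females (limma adjusted p = 0.0420), 0.38 in males (limma adjusted p = 0.953) and 0.51 ± 0.10 over both sexes (limma adjusted p = 0.0641).

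For CAU followed by AUC, an isoleucine codon, the ratios were 2.65, 2.44 and 2.24 in the Qtrt1-/- females, against 1.24, 1.39 and 1.15 in the wild-type females, and 1.57 and 2.18 in the Qtrt1-/- males, against 1.62 and 1.02 in the wild-type males. Females did not overlap and males did, with wild-type male 1 again among the knockouts. The log2 difference was 0.95 in females (limma adjusted p = 0.0444) and 0.74 ± 0.16 over both sexes (limma adjusted p = 0.0705).

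With histidine listed, limma called 1 pair higher and 1 lower in females, where 1.68% and 1.11% of all pairs were called in those directions. With 59 CAC and 53 CAU pairs tested, both histidine shares were below those of all pairs. For AAC, an asparagine codon also read by a queuosine tRNA, before CAU, the ratios were 1.43, 1.45 and 1.45 in the Qtrt1-/- females, against 0.891, 0.694 and 0.725 in the wild-type females, and 1.04 and 1.14 in the Qtrt1-/- males, against 0.938 and 0.611 in the wild-type males. For GAU before CAC they were 1.43, 1.46 and 1.61 in the Qtrt1-/- females, against 2.22, 2.79 and 2.24 in the wild-type females, and 2.14 and 1.71 in the Qtrt1-/- males, against 2.31 and 2.67 in the wild-type males. Neither pair overlapped between genotypes, the first with all 5 knockouts above and the second with all 5 below the wild types. The pairs called in females were chosen by the same difference, so the lack of overlap only describes them. The share of all pairs whose groups did not overlap was not computed. The female log2 differences were 0.91 for AAC before CAU (limma adjusted p = 0.0405) and -0.68 for GAU before CAC (limma adjusted p = 0.0489), and over both sexes 0.72 ± 0.14 and -0.53 ± 0.12 (limma adjusted p = 0.0624 and 0.0751).

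Grouped by the neighbouring amino acid, as a description, tyrosine and aspartate, both read by queuosine tRNAs, lay at opposite ends. A listed histidine preceded by tyrosine had a median log2 difference of 0.44 (4 of 4 pairs above 0, rank 1 of 20 amino acids), and one preceded by asparagine 0.28 (4 of 4). One preceded by aspartate had -0.21 (0 of 4 above 0, rank 20). At tested single sites of any listed codon the median was also above 0 after tyrosine (UAC 0.54, UAU 0.30) and asparagine (AAC 0.40, AAU 0.21). It was below 0 after aspartate (GAC -0.16, GAU -0.12), so these signs were not particular to a listed histidine. An upstream histidine had the highest medians before isoleucine (0.48, 5 of 5 pairs), lysine (0.44, 4 of 4) and aspartate (0.37, 4 of 4). Of the 4 pairs of adjacent histidines, CAU before CAU had 0.40 ± 0.29, CAC before CAC -0.01 ± 0.18, CAC before CAU -0.20 ± 0.15 and CAU before CAC -0.20 ± 0.14 on the log2 scale. Limma called 0 of them over both sexes, 0 had an unadjusted p under 0.05, and their median of -0.10 was the lowest of the 20 amino acids after an upstream histidine.

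**Figure D3:**
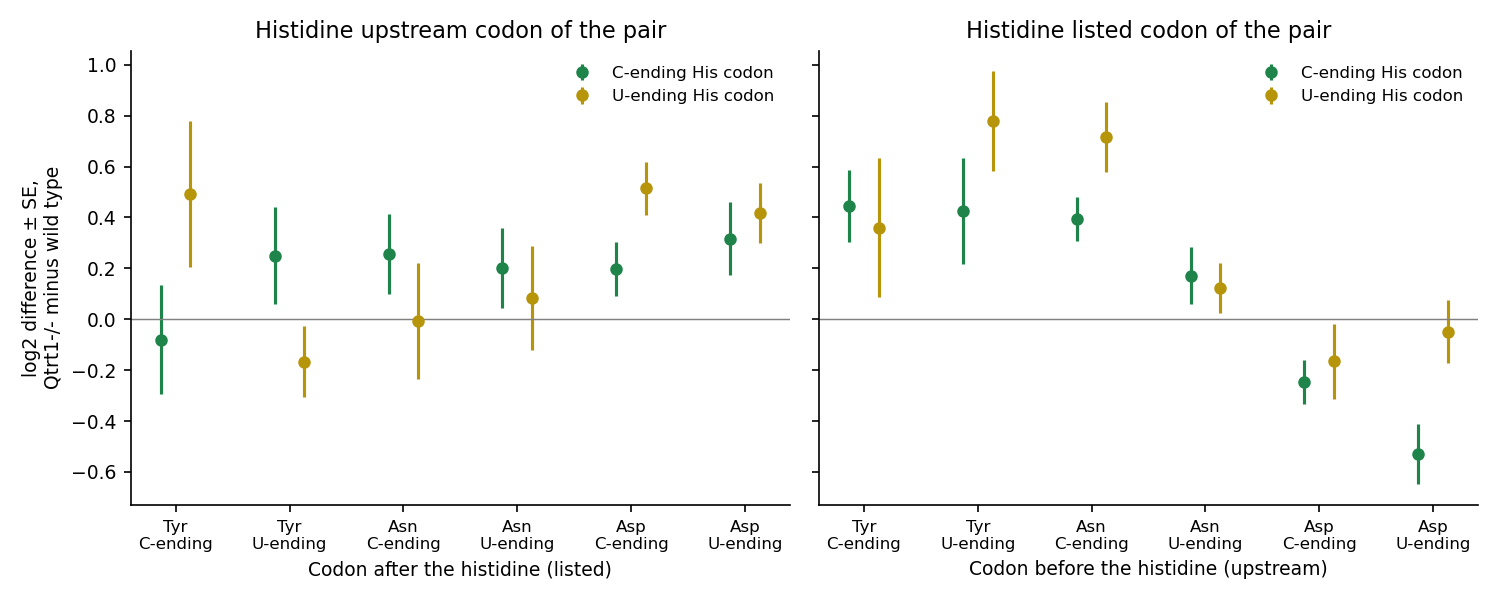
Log2 difference (Qtrt1-/- minus wild type, both sexes) of observed over expected footprints with its SE from limma, for pairs of a histidine codon with each of the 6 codons of the other queuosine tRNAs, with histidine upstream on the left and listed on the right, C-ending histidine in green and U-ending in yellow. On the right the points after tyrosine and asparagine codons lie above 0, up to 0.78 for UAU before CAU, and those after aspartate codons lie below 0, down to -0.53 for GAU before CAC.

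Single sites were tested with edgeR's quasi-likelihood test on footprint counts, with each mRNA's total as offset, so that a site was set against its own mRNA. At least 10 footprints per library on average were needed, which 24840 sites of all codons passed, and 233 of them had histidine upstream (94 with CAC, the others with CAU, on 185 mRNAs). At an adjusted p under 0.05, 14 of the 233 sites rose in Qtrt1-/- and 0 fell, where 1.46% of all tested sites were called higher and 0.974% lower. The 14 were 6.01% of the sites with histidine upstream, 12 with CAU (8.63% of the CAU sites) and 2 of 94 with CAC (2.13%). Of the 233 sites, 54 had an unadjusted p under 0.05, and the share of all sites at that threshold was not computed. DESeq2 with the same offsets called 12 of the 14, and 1 site with histidine upstream lower. The share of all sites that it called was not computed.

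Over all 233 sites the median log2 difference was 0.29, with 72.5% above 0, beside 0.04 and 52.8% over all tested sites. The medians of CAC and CAU were alike here, 0.30 and 0.29. Among the upstream codons of queuosine tRNAs, sites called higher made up 14.7% after UAC, 8.63% after CAU, 6.15% after AAC, 3.18% after UAU, 3.02% after AAU and 2.13% after CAC. Aspartate went the other way, with 0.336% higher and 3.03% lower after GAC and 0.322% higher and 2.58% lower after GAU. The share after CAU was the second highest of all upstream codons, after UAC. Some codons of other tRNAs exceeded AAU and CAC, with 3.77% after AUA (2 of 53 sites), 3.57% after UUA (2 of 56), 3.27% after ACU and 3.11% after UUC. CAC stood at rank 13 of 62. Median differences like those of histidine also followed CUC (0.30), AUA (0.27) and CUU (0.25), while others were below 0, such as CGC (-0.16).

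**Figure D4:**
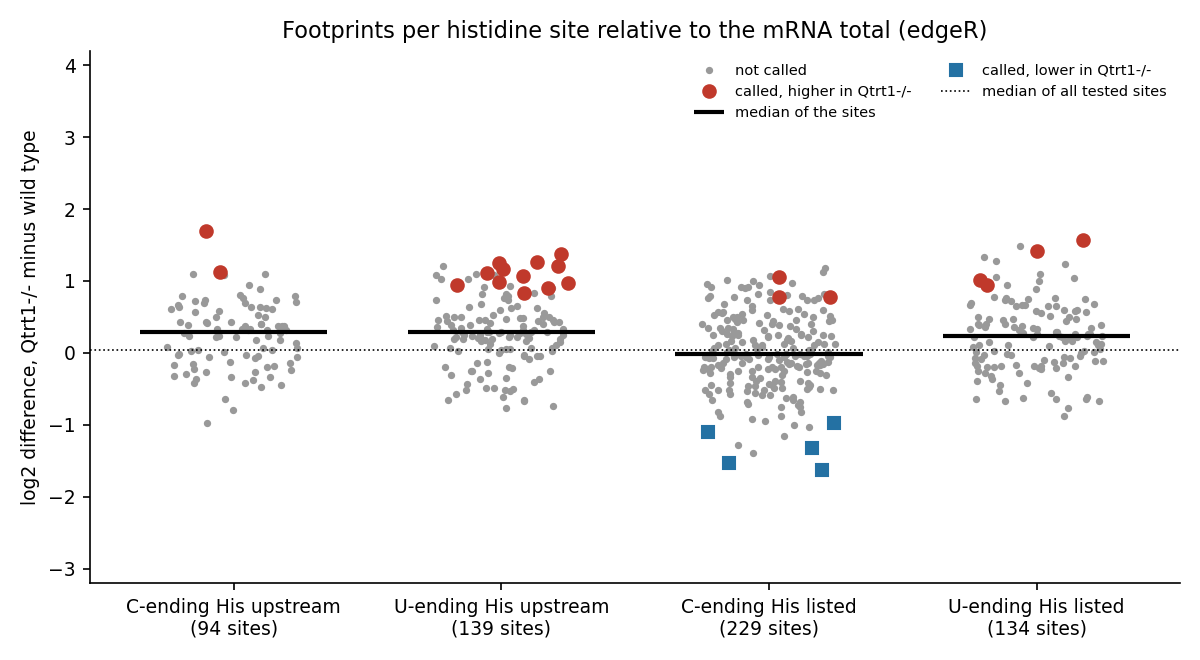
Log2 difference of footprints per site relative to its mRNA (Qtrt1-/- minus wild type, edgeR) for every tested histidine site, split by codon and by whether histidine is upstream or listed, with called sites in red (higher) or as blue squares (lower), a bar at the median of the sites and a dotted line at the median of all tested sites. Both groups with histidine upstream and the U-ending codon listed have medians of 0.23 to 0.30, whereas the C-ending codon listed has -0.02 and all 5 of the lower calls.

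The site with histidine upstream and the lowest p lay in Mmd2, a membrane protein of the progestin and adipoQ receptor family, where the CAU at codon 43 precedes GCU. Its footprints relative to the mean codon of the mRNA were 10.5, 9.96 and 11.99 in the Qtrt1-/- females, against 3.37, 4.06 and 3.75 in the wild-type females, and 6.27 and 9.19 in the Qtrt1-/- males, against 4.44 and 2.90 in the wild-type males. All 5 knockouts exceeded all 5 wild types, and the site rose by 1.27 ± 0.24 on the log2 scale (edgeR adjusted p = 0.0186).

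In Wdr6, the partner of the tRNA methyltransferase Ftsj1, the CAU at codon 773 precedes AUC. The site stood at 36.3, 37.6 and 24.6 times the mRNA mean in the Qtrt1-/- females, against 12.2, 10.8 and 10.4 in the wild-type females, and at 13.3 and 26.5 in the Qtrt1-/- males, against 13.0 and 6.89 in the wild-type males. The groups did not overlap, narrowly so for knockout male 1 and wild-type male 1, and the rise was 1.25 ± 0.24 (edgeR adjusted p = 0.0196).

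Adcy2, an adenylyl cyclase, held the called site with histidine upstream that had the highest mean ratio, at the CAU of codon 412 before GAU. It stood at 51.9, 31.6 and 21.9 times the mRNA mean in the Qtrt1-/- females, against 13.9, 9.26 and 12.8 in the wild-type females, and at 30.4 and 44.4 in the Qtrt1-/- males, against 17.5 and 29.6 in the wild-type males. Within each sex the groups did not overlap, and the rise was 1.12 ± 0.25 (edgeR adjusted p = 0.0315).

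Of the CAC sites, codon 892 of Nol6, a nucleolar protein of ribosome assembly, stood at 3.41, 7.19 and 4.95 times the mRNA mean in the Qtrt1-/- females, against 2.35, 2.68 and 2.30 in the wild-type females, and at 2.72 and 5.13 in the Qtrt1-/- males, against 0.744 and 0.727 in the wild-type males. All 5 knockouts exceeded all 5 wild types, with a rise of 1.69 ± 0.38 (edgeR adjusted p = 0.0306) at a mean of 11.5 footprints per library. The other CAC site, codon 691 of Lrrc4b, a synaptic adhesion protein, rose by 1.13 ± 0.28 (edgeR adjusted p = 0.0395).

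The remaining sites called higher with histidine upstream were all CAU and rose by 0.83 to 1.38 on the log2 scale. They lay in Brinp1, a neural protein induced by retinoic acid (codon 616), Rasgrf1, an exchange factor for Ras (codon 428), Ndufb9, a subunit of respiratory complex I, Abca2, a lipid transporter (codon 676), Klhl24, a substrate adaptor of a ubiquitin ligase (codon 261), Map1b, a microtubule-binding protein (codon 2420), Psmc6, an ATPase of the proteasome (codon 359), Enc1, an actin-binding kelch protein of neurons (codon 24), and Dync1li1, a light intermediate chain of dynein (codon 257). Knockout and wild-type females did not overlap at 14 of the 14 sites, males at 10, and all 10 animals at 7. These sites were chosen by the same difference, so the counts only describe them. Over all 233 tested sites with histidine upstream the groups did not overlap at 39.1% in females, 26.6% in males and 5.15% in all animals, and over all 24840 tested sites at 37%, 27.1% and 3.82%. The codon after the histidine encoded aspartate at 6 of the 14 (31 of the 233 tested), proline at 3 (27 tested) and isoleucine at 2 (17 tested). Listed aspartate codons were often called higher after any codon, at 3.47% of tested GAC sites and 3.11% of GAU sites, beside 1.46% of all sites.

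Of the 10 most occupied sites with histidine upstream, 4 were among those called higher, in Adcy2, Wdr6, Lrrc4b and Brinp1, and the most occupied was not called. CAU at codon 2112 of Akap6, an anchoring protein for protein kinase A, averaged 68.5 times the mRNA mean. It stood at 85.2, 71.0 and 54.8 in the Qtrt1-/- females, against 39.4, 36.6 and 40.2 in the wild-type females, and at 72.9 and 104.6 in the Qtrt1-/- males, against 54.9 and 125.5 in the wild-type males. Females did not overlap, males did, and the difference was 0.46 ± 0.23 (edgeR adjusted p = 0.261). The other uncalled sites among these 10, in Apmap (codon 377), Herc1 (986), Sdf2 (50), Slc25a46 (342) and Pcbp1 (282), averaged 20.5, 18.7, 14.7, 13.2 and 12.4 times the mRNA mean, with log2 differences between -0.37 in Apmap and 0.35 in Sdf2.

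**Figure D5:**
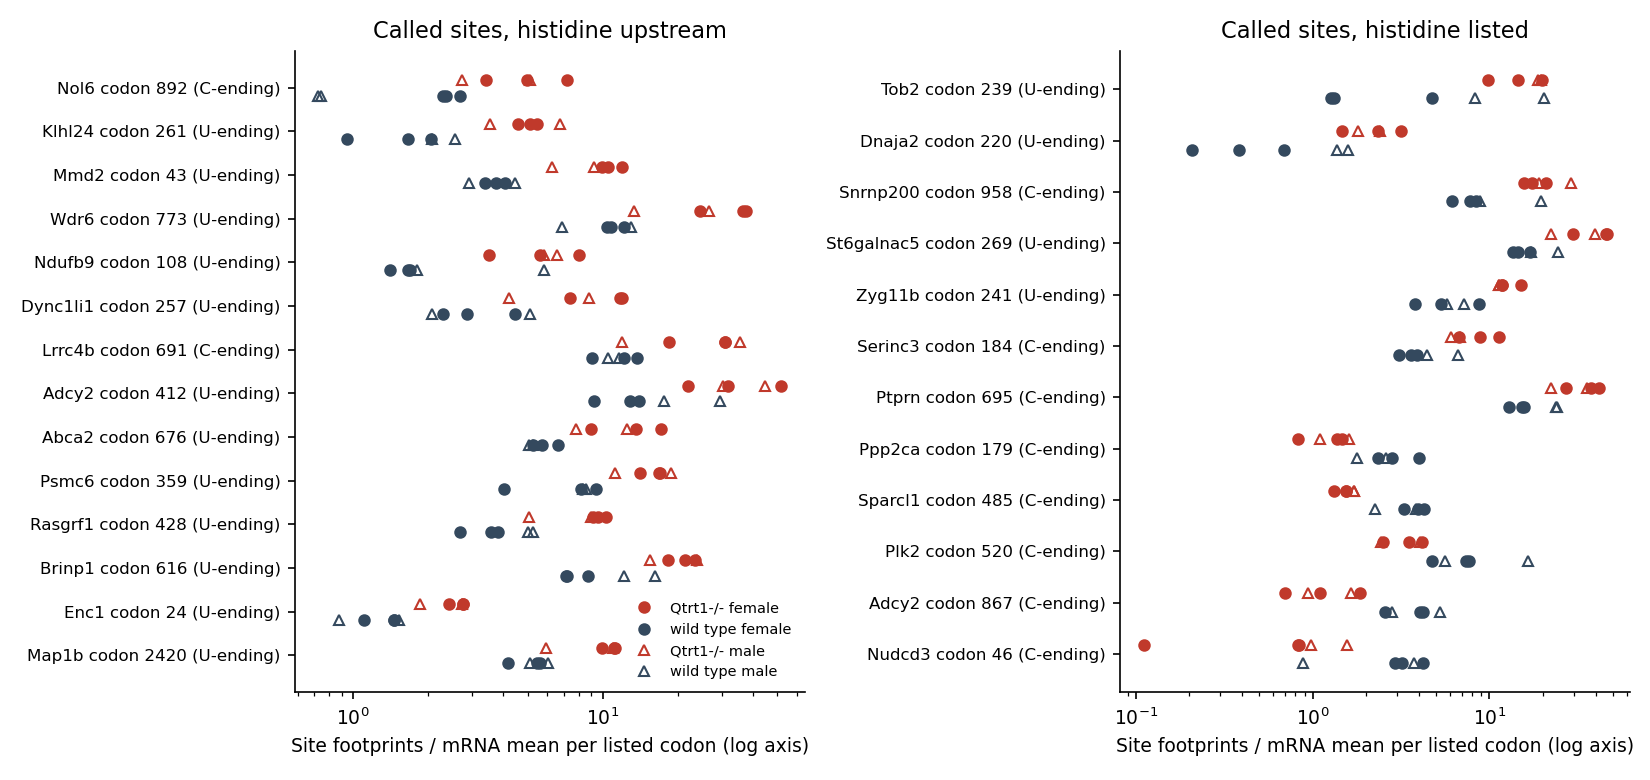
Footprints at each called histidine site divided by the mean footprints per listed codon of its mRNA (log axis), 1 symbol per animal, filled circles for females and open triangles for males, Qtrt1-/- in red above wild type in dark blue, with histidine upstream on the left (14 sites) and listed on the right (12 sites). Knockout and wild-type females do not overlap at any of the 26 sites plotted, whereas males overlap at 4 of the 14 sites on the left and 6 of the 12 on the right; these sites were chosen by the same difference, and over all tested sites the groups did not overlap at 37% in females and 27.1% in males.

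With histidine as the listed codon 363 sites were tested (229 with CAC, the others with CAU, on 251 mRNAs), and 7 rose and 5 fell in Qtrt1-/-, which is 1.93% and 1.38% of them and near the 1.46% and 0.974% of all sites. At an unadjusted p under 0.05 there were 85, again without a share over all sites. CAU accounted for 4 of the 7 that rose and for 0 of the 5 that fell, and the median log2 difference was 0.23 over the CAU sites and -0.02 over the CAC sites. In females alone edgeR called 26 of these sites higher and 13 lower, where 6.11% and 4.96% of all sites were called. All 13 called lower were CAC, but 13 CAC sites were also called higher. Each was 5.68% of the CAC sites, near the shares of all sites. The 13 CAU sites called were all higher, 9.70% of the CAU sites. With histidine upstream the same female test called 25 higher and 1 lower. Leaving out 1 female took these female calls to as few as 0 in either set, without knockout female 1 or wild-type female 2. Leaving out wild-type male 1 raised them, and the share of all sites called in that fit was not computed. In males alone, and for the difference between the sexes, edgeR called 0 histidine sites and 0 sites of any codon. At an unadjusted p under 0.05 there were 13 upstream and 20 listed sites in males, and 22 and 28 for the difference. The shares of all sites at that threshold were not computed, so these counts have no background.

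St6galnac5, a sialyltransferase of gangliosides, held the strongest called site of this kind, the CAU of codon 269 after UAU, a tyrosine codon. It stood at 46.0, 45.9 and 29.6 times the mRNA mean in the Qtrt1-/- females, against 16.9, 13.6 and 14.4 in the wild-type females, and at 22.2 and 39.6 in the Qtrt1-/- males, against 17.3 and 24.6 in the wild-type males. Females did not overlap and males did, and the rise was 1.01 ± 0.22 (edgeR adjusted p = 0.0293).

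The lowest p of this kind belonged to a CAC that fell, codon 485 of Sparcl1, a matrix protein secreted by astrocytes. It stood at 1.55, 1.32 and 1.54 times the mRNA mean in the Qtrt1-/- females, against 3.95, 4.25 and 3.27 in the wild-type females, and at 1.71 and 1.71 in the Qtrt1-/- males, against 2.27 and 3.84 in the wild-type males. All 5 knockouts lay below all 5 wild types, and the site had a log2 difference of -1.0996 (SE 0.19, edgeR adjusted p = 0.0180).

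Codon 520 of Plk2, a kinase induced by synaptic activity, is a CAC after GAC. It stood at 2.50, 3.49 and 4.17 times the mRNA mean in the Qtrt1-/- females, against 7.68, 4.71 and 7.39 in the wild-type females, and at 4.07 and 2.45 in the Qtrt1-/- males, against 5.57 and 16.5 in the wild-type males. The groups did not overlap, and the site fell by 1.32 (SE 0.30, edgeR adjusted p = 0.0315).

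The other sites that fell were CAC at codon 867 of Adcy2 (by 1.54), codon 46 of Nudcd3, a co-chaperone of dynein (by 1.62), and a CAC of Ppp2ca, the catalytic subunit of protein phosphatase 2A (by 0.97), whose footprints the authors' counting may share with the closely related Ppp2cb. On the Adcy2 mRNA, codon 867 fell while codon 412, with CAU upstream of the listed codon, rose. The other sites that rose were CAC in Snrnp200, a helicase of the spliceosome (codon 958, 1.05), Ptprn, a protein of secretory granules (codon 695, 0.78) and Serinc3, a multipass membrane protein (codon 184, 0.78), and CAU in Dnaja2, a co-chaperone (codon 220, 1.42), Zyg11b, a substrate receptor of a ubiquitin ligase (codon 241, 0.94) and Tob2, an antiproliferative protein (codon 239, 1.56). The most occupied listed sites, CAC in Map3k2 (codon 613, 47.6 times the mRNA mean) and Fem1b (codon 68, 40.4 times), had log2 differences of -0.17 and 0.06 and were not called.

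These calls rested on few animals. Leaving out knockout female 1, knockout female 2, wild-type female 2 or knockout male 2 left 0 of the 26 sites called. Of the 14 upstream sites called higher, leaving out wild-type female 1 kept 1, leaving out wild-type female 3 kept 2 and leaving out knockout female 3 kept 11. Of the 7 listed sites called higher these kept 0, 1 and 6, and of the 5 called lower 1, 1 and 2. Leaving out wild-type male 1 or knockout male 1 kept most of the 26, and leaving out wild-type male 2 kept fewer. In each of those fits 1 male of that genotype remained. Leaving out wild-type male 1 also raised the counts called of each kind. The share of all sites called in that fit was not computed. All 26 kept their sign in each of these fits.

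Genes of queuosine and of histidine tRNA were read from the gene counts, Qtrt1 first as a check of the labels. Qtrt1 had 5, 1 and 4 footprint counts in the Qtrt1-/- females, against 40, 28 and 30 in the wild-type females, and 10 and 3 in the Qtrt1-/- males, against 94 and 46 in the wild-type males. The groups did not overlap, and it fell by 3.25 on the log2 scale (SE 0.32, edgeR adjusted p = 0.00102). It was the only gene called over both sexes (0.00761% of 13143 genes). In input RNA Qtrt1 had 24 to 29 counts in the 5 Qtrt1-/- animals, against 66 to 88 in the 5 wild-type animals, and fell by 1.47 (SE 0.14, edgeR adjusted p = 0.00356, where 0.734% of 14164 genes were called).

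Qtrt2, the partner subunit, Hars, the cytosolic histidyl-tRNA synthetase, Hars2, its mitochondrial counterpart, and Thg1l, which adds the extra guanine at the start of histidine tRNA, were not called in either assay. Their log2 differences in footprints were 0.09 ± 0.18 for Qtrt2, 0.04 ± 0.07 for Hars, 0.07 ± 0.11 for Hars2 and 0.34 ± 0.16 for Thg1l (edgeR adjusted p = 0.830, 0.803, 0.755 and 0.264). In input RNA they lay between -0.07 for Hars2 and 0.09 for Qtrt2.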

How the data were processed

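Members and gene lists were chosen with earlier results of these data known. Per the file headers, the authors' occupancy tables give footprints as counts per codon, a single-codon occupancy, which is a ratio, and covered share as a percent, which was not analysed here. The deposited enrichment is a ratio per codon and position that the authors call unbiased, by a correction that no source used here describes. The deposited gene table holds raw counts. The submitters' processing notes name SAMtools 0.1.19, Bowtie 1.2.2 and 1.0.0, cutadapt 1.8.1 and Trimmomatic 0.39, without their roles. The genome build and counting program: not given in the sources used here.

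Listed codons equalled the GENCODE M21 codon at 99.93% of positions, which placed sites on GRCm38. Enrichment was compared as log2 by exact two-sided permutation within sex (120 assignments, smallest p 0.0167), the sexes weighted equally. Recomputed occupancy used mRNAs listed in all 10 libraries with a mean of at least 100 footprints, and expected footprints came from each mRNA's mean over codons listed in any library. Pairs needed 50 expected footprints and had 0.5 added before log2; sites needed a mean of 10. Codons and pairs were fitted with limma 3.58.1, sites and genes with edgeR 4.0.16 (R 4.3.3; genes with TMM and filterByExpr), each over the whole table with Benjamini-Hochberg adjustment at 0.05, in 1 model of the 4 groups of sex and genotype. Tests were tried on simulated data. A site absent from a table whose mRNA was listed counted as 0. Named sites were, for histidine upstream and listed, the 10 most occupied tested sites and called sites by lowest p. Named pairs were the 5 with the lowest p and the 3 highest and lowest in wild type, and pairs called in females were added after their values were seen, as were the called sites beyond the first 10. Counting error limits precision at sites with few footprints.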

Additional observations from a re-analysis of the deposited data

How the results depend on the processing

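Alternatives that leave out Ttr, or take codon content from the full coding sequences, were chosen after seeing the data. Dividing each library by its median codon gave 0.12 for CAU listed (exact permutation p = 0.0167), and leaving out the first 100 codons of each mRNA gave 0.13 for recomputed CAU listed (exact permutation p = 0.0333). Without Ttr recomputed CAU upstream was 0.25 (exact permutation p = 0.0333). The mean deposited occupancy gave -0.14 for CAU upstream and 0.064 for CAC listed. With sites above 20 times the mRNA mean left out, 1 pair with histidine listed was called higher. A minimum of 5 footprints gave 6 upstream sites higher, and 1 listed site higher and 2 lower. DESeq2 gave 1 upstream site lower, 11 listed sites higher, and -0.0014 for Thg1l in input RNA. The share of all sites or pairs called was not computed for these alternatives, so the counts have no background. The causes were not tested.

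Same-numbered animals did not deviate together (r over sites 0.098, -0.039 and 0.023 in females and -0.0047 in males), so the numbers were not taken to pair the animals, although males of the same number were also of the same age. With the replicate block, sites called were 3 higher upstream, and 1 higher and 1 lower listed, and the share of all sites called there was not computed. Enrichment differences stayed as they were, for CAU upstream 0.26 (exact sign-flip permutation p = 0.125).

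Leaving out 1 animal at a time gave these log2 ranges. The gap was -0.23 to -0.091 listed (males -0.27 to 0.016) and -0.16 to 0.027 upstream (males -0.30 to 0.088). CAC upstream ran from -0.016 to 0.40 (males -0.32 to 0.52, difference of the sexes -0.23 to 0.61, recomputed -0.015 to 0.41), and CAC listed from -0.10 to 0.026 in males and from -0.10 to 0.025 for the difference of the sexes. CAU upstream ran from 0.15 to 0.38 (males -0.024 to 0.43, difference of the sexes -0.11 to 0.35, recomputed 0.15 to 0.39), and CAU listed from 0.059 to 0.15 (males -0.0014 to 0.17, difference of the sexes -0.053 to 0.12). Footprints of Hars2 ran from -0.00093 to 0.14 and of Qtrt2 from -0.11 to 0.26, and input RNA of Qtrt2 from -0.0052 to 0.20 and of Thg1l from -0.057 to 0.058. Counts called ran from 0 to 16 higher and 0 to 8 lower over codon and position, 0 to 48 for pairs with histidine upstream, and 0 to 14 higher and 0 to 6 lower for pairs with histidine listed. Upstream sites ran from 0 to 28 higher and 0 to 1 lower (0 to 47 in females), and listed sites from 0 to 17 higher and 0 to 9 lower (0 to 62 in females). For these fits, some of which kept 1 male of a genotype, the share of all combinations, pairs or sites called was not computed. The counts called therefore have no background. Sites with few footprints and 2 males per genotype limit every single-site statement.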
